A study of Homo sapiens with 18 samples.

Results

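The genes described are 10 members of the bone morphogenetic protein (BMP) pathway, taken from the deposited table by a fixed list of symbols, with no threshold on a measured value. The list was drawn up with earlier results of these data known. They are the ligand genes *BMP2*, *BMP4* and *BMP7*, the receptor genes *BMPR1A* and *BMPR2*, the inhibitor gene *SMAD6* and the target genes *ID1*, *ID2*, *ID3* and *ID4*. All 10 were listed at 3, 6 and 24 h, among 18672 genes listed at all 3 times and 21944 listed at any time. The samples were human pancreatic progenitors at day 19 of differentiation from embryonic stem cells, which were detached with accutase and reseeded on laminin-411 (LN411) or fibronectin (FN), the matrix used for comparison. They were harvested 3, 6 or 24 h later, with 3 samples for each of the 6 combinations and 18 in all. The study gives the sequenced cells as derived from NGN3-GFP (SA121), a line with a fluorescent reporter for *NEUROG3*, as does the growth protocol in the labels, whereas the cell line field of the labels reads HUES4. The labels give no difference in genotype between the groups and no agent other than the matrix.

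The value analysed was the mean normalized count of each gene, taken by the authors as the average of 18 libraries, each scaled by its size factor. It was the same at the 3 times of every gene, with a largest relative gap of 4.89e-07. It therefore mixes both matrices and all times, and it carries no standard deviation. Why some genes have no row, or no row at some times, was not examined. A missing row is not read here as a lack of expression. Values of single samples were not used here. Library depths are thus unknown, and a difference between LN411 and FN is not reported for any gene. The authors' own columns comparing the matrices were left out. The means of the genes listed at all 3 times sum to 53186607. To compare genes, each mean was divided by the length of the union of the gene's annotated exons and is given below as a level per kb. Levels on a single transcript, the longest or the canonical one, are equal or higher, since no transcript is longer than that union. The gene in the middle of the distribution had a level of 130.3 per kb, over 18606 genes with a known length.

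BMPs are secreted dimers of the TGF-beta superfamily. They bring type I and type II serine/threonine kinase receptors together, the type I receptor phosphorylates SMAD1, SMAD5 and SMAD9, and these enter the nucleus with SMAD4. The *ID* genes are their best known targets. ID proteins have a helix-loop-helix domain without a DNA-binding region and hold E proteins in dimers that do not bind DNA. Since proneural factors such as NEUROG3 work as dimers with E proteins, ID proteins are known as inhibitors of differentiation.

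*BMP2* and *ID2* had the highest levels of the 10 genes and *BMP4* the lowest. Of the 10 genes, 3 lay above the 90th percentile of the 18606 genes in level per kb, namely *BMP2*, *ID2* and *ID1*. Of the 10, 9 lay above the median gene. *ID1* fell below the 90th percentile on the longest transcript (86.75) and on the canonical transcript (87.53). The levels are averages over bulk samples, in which fewer cells of a type and less RNA per cell cannot be told apart. The order from high to low was *BMP2*, *ID2*, *ID1*, *BMP7*, *ID4*, *BMPR2*, *ID3*, *BMPR1A*, *SMAD6* and *BMP4*. Whether neighbours in this order differ beyond the spread of the samples could not be assessed from a pooled mean. The choice among the 3 gene lengths turned 3 of the 45 pairs, and these are named beside the genes below. Without division by length, other pairs turned too. By mean normalized count, *ID4* (2345) was above *ID1* (1562), and *BMPR2* (4607) was above *BMP7* (4113).

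**Figure D1:**
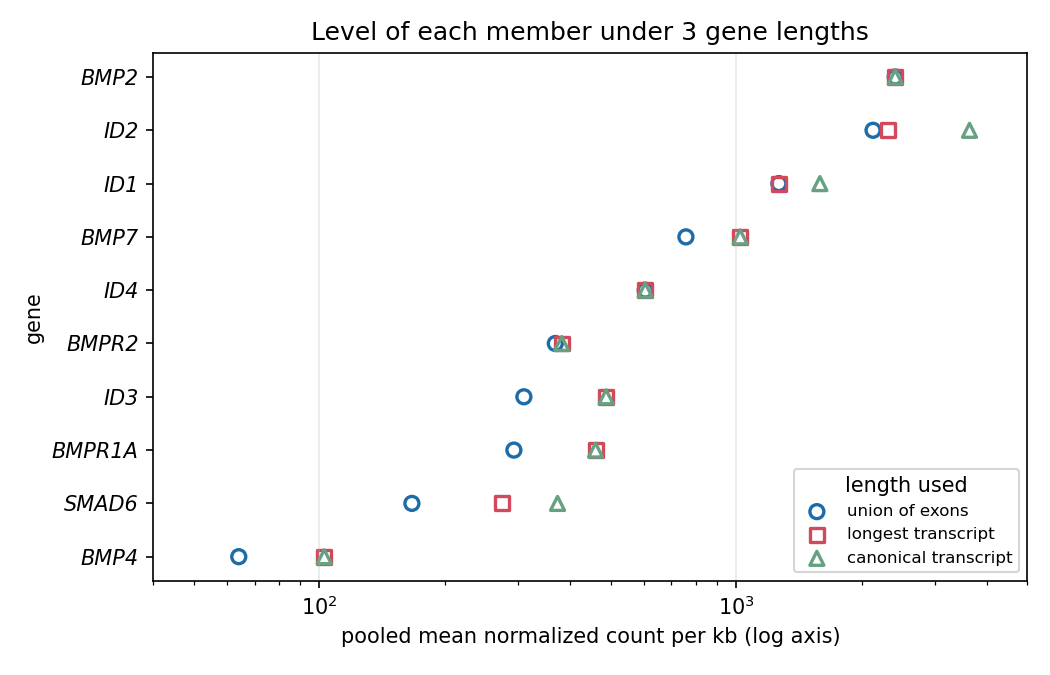
Pooled mean normalized count per kb (log axis) of the 10 genes, ordered by the level on the union of exons, with 1 symbol for each of 3 ways to measure gene length. *BMP2* and *ID2* lie highest and *BMP4* lowest, and symbols lie apart where transcripts of a gene differ in length, as for *SMAD6* (166.9 to 373.1 per kb); the authors' means carry no error bar.

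Among the ligands, *BMP2* stood out. *BMP2* (ENSG00000125845, chromosome 20 of GRCh38, 6767686 to 6780246, 3 exons) had a mean normalized count of 8537 and a level of 2408 per kb. This was 18.5 times the level of the median gene, at percentile 95.9. *BMP7* (ENSG00000101144, chromosome 20, 57168753 to 57266641, 7 exons) had a mean normalized count of 4113, a level of 758.1 per kb and percentile 84.2. *BMP4* (ENSG00000125378, chromosome 14, 53949736 to 53958761, 4 exons) had a mean normalized count of 198.6 and a level of 64.2 per kb, 0.492 times that of the median gene and at percentile 39.0. On the longest transcript its level was 102.9 per kb. In level per kb on the union of exons, *BMP2* was thus 3.18 times *BMP7* and 37.5 times *BMP4*. On the longest transcript, these ratios were 2.35 and 23.4. BMP2 and BMP4 are close relatives that bind the same type I receptors, whereas BMP7 belongs to another subgroup and also uses ACVR1.

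Of 13 BMP and GDF ligand genes chosen for this description, which are not all genes of the family, 10 were listed. *BMP2* made up 65.0% of the summed level per kb of these 10, *BMP7* 20.4% and *BMP4* 1.73%. With the longest transcript as the length, these shares were 60.0%, 25.5% and 2.56%. The largest share of a ligand outside the 10 genes was that of *BMP6*, chosen after its value was seen, with 7.23%. The lowest listed ligand was *GDF7*, at 6.14 per kb, and *BMP10*, *GDF2* and *GDF5* had no row in the table used here. Only *BMP2*, *BMP7* and *BMP6* were above the median gene.

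The receptor genes had lower levels than *BMP2*. *BMPR1A* encodes a type I receptor (ENSG00000107779, chromosome 10, 86756596 to 86932825, 13 exons) and had a mean normalized count of 2953, which gave 293.1 per kb and percentile 65.4, or 460.2 per kb on the longest transcript. *BMPR2* encodes the type II receptor specific to BMPs (ENSG00000204217, chromosome 2, 202376327 to 202567751, 13 exons) and had a mean normalized count of 4607, which gave 368.5 per kb and percentile 70.3. The level of *BMPR2* was 1.26 times that of *BMPR1A* on the union of exons, but 0.830 times on the longest transcript. The order of these receptor genes therefore rests on the length used, as does that of *BMPR2* and *ID3*.

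On the union of exons, *BMPR1A* was the only one of 4 type I receptor genes above the median gene. *ACVR1*, chosen after its values were seen, was at 0.895 times the median gene on the union but at 1.48 times on the longest and 1.69 times on the canonical transcript. *ACVRL1*, whose product is known mainly from endothelium, was the lowest at 1.53 per kb. All 3 type II receptor genes were above the median gene, from 246.6 per kb for *ACVR2A* to 502.6 per kb for *ACVR2B*, both of which encode receptors that also bind activins. Of 4 co-receptor genes, 3 were listed and none of these was above the median gene, from *ENG* at 16.5 per kb to *RGMB* at 69.5 per kb, while *HJV* had no row.

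**Figure D2:**
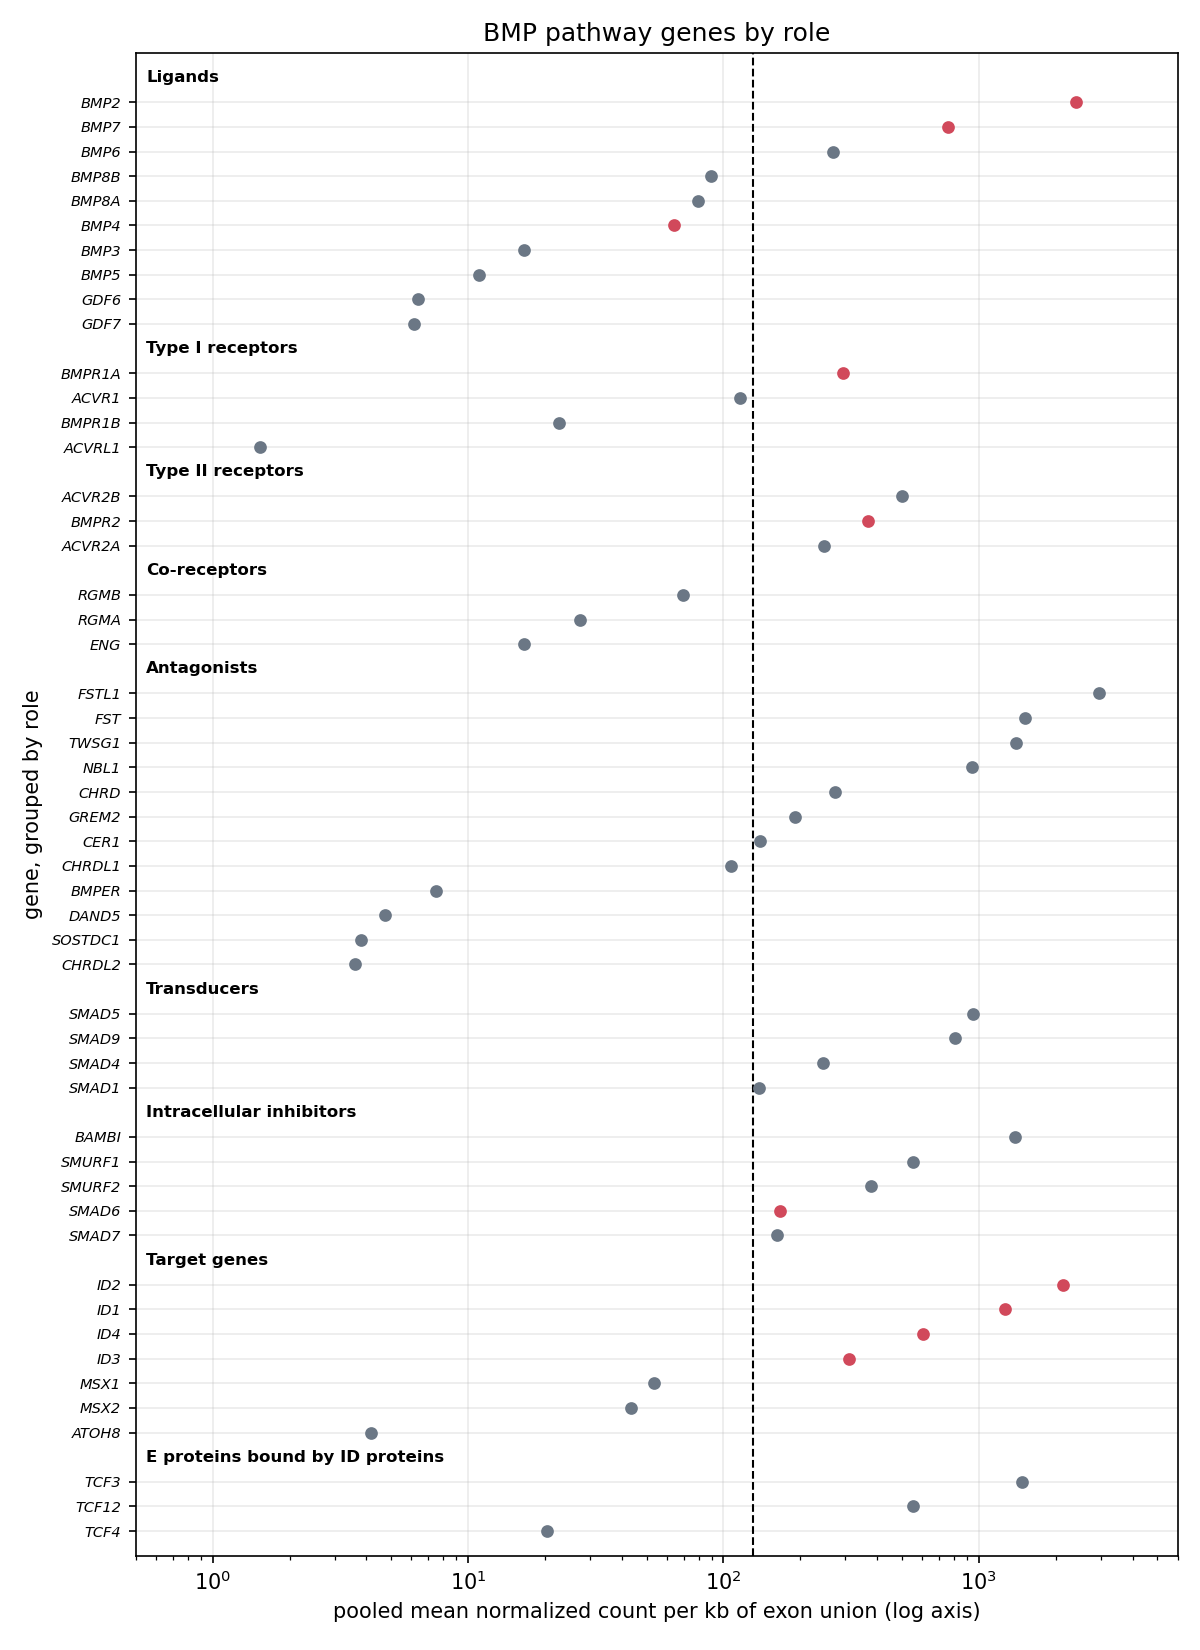
Pooled mean normalized count per kb of the union of exons (log axis) for the 51 listed genes of the pathway, in 1 row for each gene and grouped by role, with the 10 genes described here in red and the others in grey. *BMP2* is the highest ligand and *ID2* the highest target gene, whereas *FSTL1* (2969 per kb) leads the antagonists. *BAMBI* (1392 per kb), for a pseudoreceptor in the membrane, leads the group labelled intracellular inhibitors. The dashed line is the median gene.

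*SMAD6* encodes an inhibitory SMAD that blocks BMP type I receptors and is itself a target of the pathway. It lies on chromosome 15 (ENSG00000137834, 66702236 to 66782849, 4 exons), had a mean normalized count of 1428 and reached 166.9 per kb, at percentile 54.4. Its ratio to *SMAD7*, the lowest of 5 intracellular inhibitor genes at 162.5 per kb, was 1.03 on the union of exons, 1.43 on the longest transcript and 1.94 on the canonical transcript. *BAMBI* was grouped with these inhibitors, although it encodes a pseudoreceptor in the membrane, without a kinase domain. Its level was the highest of the 5 at 1392 per kb. This was 8.34 times *SMAD6* on the union of exons, 5.75 times on the longest and 4.72 times on the canonical transcript. On the union of exons, all 5 were above the median gene, but *SMAD7* was at 0.941 times the median gene on the canonical transcript. All 4 transducer genes were above the median gene for each of the 3 lengths, from *SMAD1* at 137.5 per kb to *SMAD5* at 953.0 per kb.

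Of 15 genes for secreted antagonists, 12 were listed. Of these, 7 were above the median gene on the union of exons, 6 on the longest and 5 on the canonical transcript. *FSTL1*, which encodes a follistatin-like glycoprotein, was the highest at 2969 per kb, or 1.23 times *BMP2* on the union of exons and 2.02 times on the longest transcript. *CHRDL2*, for a chordin-like protein, was the lowest on the union of exons, at 3.60 per kb. *NOG*, *GREM1* and *SOST* had no row in the table used here. Across the 48 pathway genes outside the 10, 41 were listed, with a median of 116.6 per kb, and 20 of them were above the median gene, or 18 on the canonical transcript.

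The 4 *ID* genes differed in level among themselves. *ID2* (ENSG00000115738, chromosome 2, 8678845 to 8684461, 3 exons) had a mean normalized count of 4715 and a level of 2131 per kb, at percentile 95.2. *ID1* (ENSG00000125968, chromosome 20, 31605283 to 31606515, 2 exons) had a mean normalized count of 1562 and a level of 1267 per kb, at percentile 91.1. *ID4* (ENSG00000172201, chromosome 6, 19837370 to 19842197, 3 exons) followed with a mean normalized count of 2345 and a level of 605.4 per kb, at percentile 80.5. *ID3* (ENSG00000117318, chromosome 1, 23557926 to 23559501, 3 exons) was the lowest, with a mean normalized count of 463.5 and a level of 309.8 per kb, at percentile 66.6, or 487.9 per kb on the longest transcript.

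*ID2* accounted for 49.4% of the summed level per kb of the *ID* genes, *ID1* for 29.4%, *ID4* for 14.0% and *ID3* for 7.18%. This order of the 4 genes held for all 3 lengths, and the share of *ID2* rose to 57.5% with the canonical transcript, which is shorter than the union of exons. With that length *ID2*, at 3630 per kb, also passed *BMP2*, at 2408 per kb, as the highest of the 10 genes. *ID2* was 1.68 times *ID1* and 6.88 times *ID3* on the union of exons. Of the other 3 target genes on the list, all were below the median gene, with *ATOH8*, for a basic helix-loop-helix factor, lowest at 4.16 per kb. Among the E protein genes whose products ID proteins bind, *TCF3* had 1471 per kb and *TCF4* 20.3 per kb on the union of exons. On the longest transcript they had 1978 and 71.1 per kb, since the union of *TCF4* spans 29166 bases and its longest transcript 8343.

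**Figure D3:**
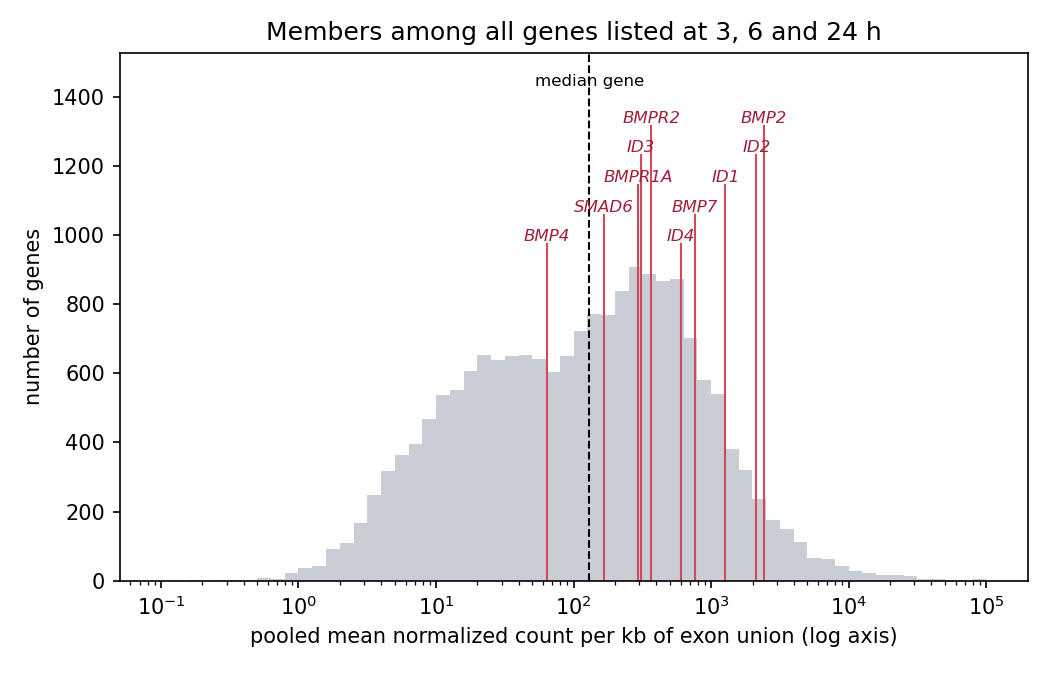
Histogram of the pooled mean normalized count per kb of the union of exons (log axis) for 18606 genes listed at 3, 6 and 24 h, with red lines at the 10 genes and a dashed line at the median gene (130.3 per kb). *BMP4* is the only one of the 10 to the left of the median gene, and *BMP2*, *ID2* and *ID1* lie in the right tail, above the 90th percentile.

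Sequence near start sites of the genes was read from RefSeq promoters (GRCh38.p14), each with 250 bases before and 50 after a start site. Of the 10 genes, 8 matched, with 10 promoters since *BMP4* has 3; *BMP2* and *BMP7* had no entry. SMAD complexes are known to bind the GC-rich element GGCGCC and the box GTCT, and both were searched on both strands. GGCGCC is its own reverse complement. GGCGCC was found in 2 of the 10 promoters, 1 of *BMP4* and that of *BMPR2*, against 19.2% of 35116 promoters of the same length. GTCT was found in 9 of the 10, against 84.0% of all, and the exception was *BMPR1A*. The promoter of *BMPR1A*, which also has the lowest GC content given below, spans 86755513 to 86755812. It ends before the annotated start of the gene at 86756596. The promoter of *ID2*, 8681806 to 8682105, lies inside the span of the gene, which starts at 8678845. The 3 promoters of *BMP4*, on the minus strand, reach up to 53955300. They lie inside the span of that gene, which ends at 53958761. GGCGCC followed after 5 bases by GTCT was found in none of the 10 and in 0.103% of all. Their GC content ranged from 50.3% to 76.7% with a median of 67.0%, against a median of 58.7% over all promoters. A match is a description of the letters, and no binding was measured.

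The windows below show the most upstream GTCT box of each *ID* gene, because the *ID* genes are the best known SMAD targets among the 10. Capitals mark GTCT or, where the box is on the other strand, its reverse complement AGAC. The windows are chr20:31605120-31605149 on the plus strand for *ID1*, chr2:8681946-8681975 on the plus strand for *ID2*, chr1:23559637-23559666 on the minus strand for *ID3* and chr6:19837159-19837188 on the plus strand for *ID4*.
ID1: ccgggtcGTCTttccacactgcgagcaggc
ID2: cccgctcGTCTtgatAGACgtgccaccttc
ID3: ctccgcgGTCTtcggcgtcAGACcagccgg
ID4: ccactccAGACcccccgcccactcctccac

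The boxes begin 162 bases upstream of the start site of the promoter in *ID1*, 103 in *ID2*, 158 in *ID3* and 204 in *ID4*. The box of *ID2* thus lies within the annotated span of the gene. In the windows shown, which were placed on a box, those of *ID2* and *ID3* also held a second box. How often GTCT and AGAC lie this close over all promoters was not counted, so no meaning is given to it. The promoters of *ID1*, *ID2*, *ID3* and *ID4* did not hold GGCGCC within the 250 bases before and 50 after the start site. Sequence further upstream was not searched, so sites outside this stretch would be missed.

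By position, *BMP2*, *BMP7* and *ID1* lie on chromosome 20 and *BMPR2* and *ID2* on chromosome 2. The spans of 7 of the 10 genes overlap another annotated gene, and 3 of the 10 overlapping genes were themselves listed. *ID2* shares 145 exon bases with *ID2-AS1* on the opposite strand, which had a mean normalized count of 68.3. *BMP4* shares 506 exon bases with an lncRNA on the opposite strand that was not listed, and *BMPR2* shares 57 with a gene on its own strand that was not listed. These overlaps are those of GENCODE v44, whereas the authors counted with v32. A gene absent from v32 could not be listed. *ID2-AS1* was listed, so the authors counted it, whereas whether the genes not listed are in v32 was not checked. The methods of the study name the library kit and the GeneCounts option of STAR, but state no strand setting. Within these shared bases, reads may have been assigned to *ID2* or *BMP4*, to the antisense genes, or to neither. Reads of *ID2* or *BMP4* assigned to neither would be missing from their levels. Which of these applies was not tested. The shared bases are 145 of 2213 exon bases of *ID2* and 506 of 3096 of *BMP4*.

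The labelled cell type was checked against marker genes. All 9 markers of pancreatic progenitors were listed, and 8 were above the median gene, with *SOX9* at 5259 per kb and *PDX1* at 4969 per kb. *PTF1A*, which is known from multipotent progenitors and acinar cells, was the exception at 7.64 per kb. The pluripotency genes *POU5F1* and *NANOG* had no row. Of 4 endocrine genes, *CHGA* had 1426 and *NEUROG3* 289.0 per kb, while *INS* and *GCG* had 12.7 and 6.87 per kb. *INS* was listed at only 1 of the 3 times and *GCG* at 2. Since each mean pools all times, this gives no level at a single time. Genes known from liver were also present, with *APOA1* at 12416, *AFP* at 8334 and *ALB* at 186.5 per kb. Of 3 mesenchymal genes, *COL1A1* had 454.2, *PDGFRA* 90.9 and *COL3A1* 47.4 per kb. The 3 endothelial genes were at 9.69 per kb or lower, and *CDH5* among them was listed at only 1 time. The part of other cell types in the levels of the 10 genes was not tested.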

How the data were processed

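Polyadenylated RNA of 18 samples was sequenced. According to the methods of the study, the authors aligned reads with STAR to GRCh38.p13 and counted them per gene with the GENCODE v32 annotation. Per the labels, the versions were STAR 2.7.2d and DESeq2 1.34.0. The deposited signal used here is the mean normalized count over all samples, which the authors obtained by dividing counts by size factors. The other 5 value columns hold the authors' own comparisons of LN411 with FN (log2 fold change, standard error, statistic and p-values) and were not used. The table has no column of a single sample, so the edgeR test planned for counts per sample was not run and there are no replicate errors.

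Symbols of the table were used, and 99.6% of 21944 Ensembl identifiers matched GENCODE v44, the same assembly with a newer annotation. Levels per kb used the union of exons, with the longest and the canonical transcript as alternatives. Percentiles were taken over 18606 genes. Functions were tested on simulated data. The members and lists were chosen with earlier results of these data known. From each role list of the pathway, the highest, the lowest and the absent genes on the union of exons are named. Further pathway names are marked, and the markers named were picked after their values were seen. Python 3.11.15, numpy 2.4.6, pandas 2.3.3 and matplotlib 3.10.9 were used.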

Additional observations from a re-analysis of the deposited data

How the results depend on the processing

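The number of the 10 genes above the 90th percentile was 3 on the union of exons, 2 with the longest or the canonical transcript, and 1 without division by length, where only *BMP2* passed. *ID1* moved most, with percentiles from 65.1 without division to 92.4 among genes listed at any time. *ID3* ranged from 46.0 to 71.6 and *BMPR2* from 61.3 to 85.9. The number above the median gene was 9, or 8 without division by length. Taking all genes listed at any time, or only those whose mean reached 10 normalized counts, left both counts as they were. No paired analysis was possible because the table holds no values of single samples. For the same reason the replicate block, DESeq2, a filter on low counts of single samples and leaving out each replicate were not run. No value has an error, and the precision of low means such as that of *BMP4* cannot be given.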
